A study of Homo sapiens with 16 samples.

Results

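The OAS family of 4 genes, OAS1, OAS2, OAS3 and OASL, was followed through 16 RNA-seq libraries made from HEK293, an established cell line derived from human embryonic kidney. The members were chosen by name. All 4 of the 60671 genes in the deposited count table were found by their Ensembl identifiers, and all 4 were among the 19316 genes that passed the filter on low counts. The libraries formed 8 groups of 2. Parental cells received no plasmid. Empty vector cells received pcDNA3.0 alone, and the groups T1, T2, CU1, CU2, CU1ENC and CU1ENU received pcDNA3.0 carrying 1 of 6 transcripts of the long noncoding RNA gene LINC01016. All 7 transfected groups had 5 micrograms of plasmid with Lipofectamine 3000 on 60 mm plates and were collected after 48 hours. The labels name no mock-transfected group, so the plasmid and the lipid reagent cannot be told apart. Nor do they say whether replicates 1 and 2 came from separate cultures; p-values therefore reflect the spread among the libraries alone, and that spread may be technical.

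The OAS proteins are sensors of double-stranded RNA. OAS1, OAS2 and OAS3 are enzymes that, once bound to such RNA, join ATP into short oligoadenylates linked from the 2′ to the 5′ position, known as 2-5A. The second messenger 2-5A sets off the breakdown of viral and cellular RNA. OASL resembles the enzymes but lacks their activity, and it is known to act on RIG-I signalling through a ubiquitin-like tail. All of the family are classical interferon-stimulated genes, switched on through interferon-response elements in their promoters.

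OAS1, OAS3 and OAS2 lie head to tail on the plus strand of chromosome 12 in the GRCh38 annotation of the deposited table. OAS1 (ENSG00000089127) runs from 112906783 to 112933222, with 8 merged exons and 4964 exonic bases. OAS3 (ENSG00000111331) begins 5221 bases further on, from 112938444 to 112973251, with 16 merged exons and 8161 exonic bases. OAS2 (ENSG00000111335) follows after 5143 bases, from 112978395 to 113011723, with 10 merged exons and 6264 exonic bases. OASL (ENSG00000135114) stands 8.01 Mb away on the minus strand, from 121019111 to 121039242, with 6 merged exons and 3517 exonic bases. A gene on the opposite strand, ENSG00000257452, shares 92 bases (1.85%) of the OAS1 exons and had 0 to 45 counts; the counting used strand.

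Promoter sequence is shown because the members moved together across libraries. The stretches end at the base before the gene start in RefSeq (GRCh38.p14, plus strand), and the 250 bases before each start were searched. The OAS3 stretch is shown whole, and 30 of its bases lie inside the gene as annotated for the counts. Of the OAS1 window 179 bases lie inside the counted gene, and only its last 30 bases are shown. Capitals mark matches, searched on both strands, to GAAA followed by GAAA with 1 or 2 bases of any kind between them, letter patterns of the elements that interferon regulatory factors are known to bind.
OAS1, chr12:112906932-112906961: cctcccttctgagGAAACGAAAccaacagc
OAS3, chr12:112938224-112938473: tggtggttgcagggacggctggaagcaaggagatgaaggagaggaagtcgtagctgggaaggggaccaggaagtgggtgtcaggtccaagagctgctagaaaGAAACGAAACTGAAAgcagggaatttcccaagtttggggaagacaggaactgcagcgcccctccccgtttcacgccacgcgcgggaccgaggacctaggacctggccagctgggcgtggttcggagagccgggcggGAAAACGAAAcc
In OAS1 the match GAAACGAAA sat at -17 to -9 from the start. In OAS3 a match GAAACGAAA at -148 to -140 overlapped a match GAAACTGAAA at -143 to -134, and GAAAACGAAA lay at -12 to -3. Of 35116 RefSeq promoters searched over the same 250 bases before the start, 5.48% held at least 1 of these patterns, 2.69% that with 1 base between and 3.02% that with 2. Among 33 other interferon-stimulated effector genes, 27 had a promoter in the table and 21 of those (77.8%) held a match. Among nucleic acid sensors and adaptors 2 of 7 promoters did (28.6%), and among interferon and interferon signalling genes 2 of 12 (16.7%). None of the 3 promoters of ABCE1, PDE12 and AKAP7, genes tied to 2-5A that are described after the members, did. A match is a description of the letters, not of binding. OAS2 and OASL were not among the promoters used here.

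Library totals were 15040770 to 17255935 counts, and levels are given as CPM, read counts as a rate of the library total after TMM scaling. LINC01016 had at most 1 count in the parental and empty vector libraries and 40405 to 192244 in the 12 isoform libraries. Kidney progenitor and epithelial markers were present (8 of 8, KRT8 at a median of 805 CPM). Their summed level was 828 to 1077 CPM in parental, 1206 to 1323 in transfected replicate 1 and 1358 to 1494 in transfected replicate 2. Of 9 leukocyte markers, MS4A1 had 0 counts throughout and PTPRC at most 2; their summed level was 1.52 to 1.78 CPM in parental and 3.15 to 5.94 CPM in transfected libraries, mostly CD14. The 5 fibroblast markers summed to 59.4 to 60.9 CPM in parental and 44.6 to 57.9 CPM in transfected libraries. The part of these markers in the results was not tested.

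In all 14 transfected libraries, each of the 4 members lay above both parental libraries. The share of all tested genes that did the same is not given here. The rise of the members was far from even: replicate 1 of every transfected group was higher than replicate 2, by factors from 1.57 to 71.6. In these bulk libraries, more cells with a transcript and more transcript per cell cannot be told apart.

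OAS1, the smallest of the enzymes, had 10 and 28 counts in the parental libraries, or 0.592 and 1.71 CPM. In replicate 1 of the transfected groups, taken in the order empty vector, T1, T2, CU1, CU2, CU1ENC and CU1ENU, it stood at 36.4, 100.4, 65.8, 88.7, 109, 71.2 and 54.0 CPM. In replicate 2 it stood at 12.4, 3.41, 35.9, 4.55, 37.3, 6.15 and 7.71 CPM in the same order. The replicate 2 libraries of T2 and CU2 were thus high, those of T1, CU1, CU1ENC and CU1ENU low, and empty vector lay between.

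OAS2, an enzyme with a doubled catalytic unit, had the lowest CPM of the enzymes in parental cells, 0.118 and 1.40 CPM from 2 and 23 counts. Replicate 1 of the transfected groups, again from empty vector to CU1ENU, gave 26.9, 104.2, 45.4, 76.0, 104.2, 48.5 and 38.3 CPM. Replicate 2 gave 10.2, 1.45, 21.9, 2.34, 36.7, 3.95 and 5.36 CPM. The T1 library of replicate 2, with 23 counts, was at the level of the second parental library, also 23 counts: their ratio was 1.04 (95% exact interval 0.556 to 1.93, counting error only).

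OAS3, whose protein carries 3 OAS units and which is regarded as the main source of 2-5A in many human cells, was the most abundant member in parental cells, at 18.7 and 24.0 CPM from 316 and 394 counts. In the same order, replicate 1 gave 215, 452, 285, 384, 442, 353 and 291 CPM. Replicate 2 gave 90.9, 34.0, 182, 39.1, 214, 48.1 and 53.8 CPM. Its groups followed the same pattern over a narrower range, 13.3-fold between the lowest and highest transfected library against 31.8-fold for OAS1, 70.2-fold for OAS2 and 23.1-fold for OASL.

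OASL, the family member without 2-5A activity, was at 0.355 and 0.792 CPM in parental cells from 6 and 13 counts. Replicate 1 gave 9.26, 23.6, 14.1, 20.9, 25.5, 15.1 and 14.1 CPM from empty vector to CU1ENU, and replicate 2 gave 2.75, 1.77, 7.94, 1.08, 9.20, 2.20 and 2.03 CPM. Here the lowest transfected library was CU1 replicate 2, with 17 counts, 1.36-fold the second parental library (0.621 to 3.04).

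**Figure D1:**
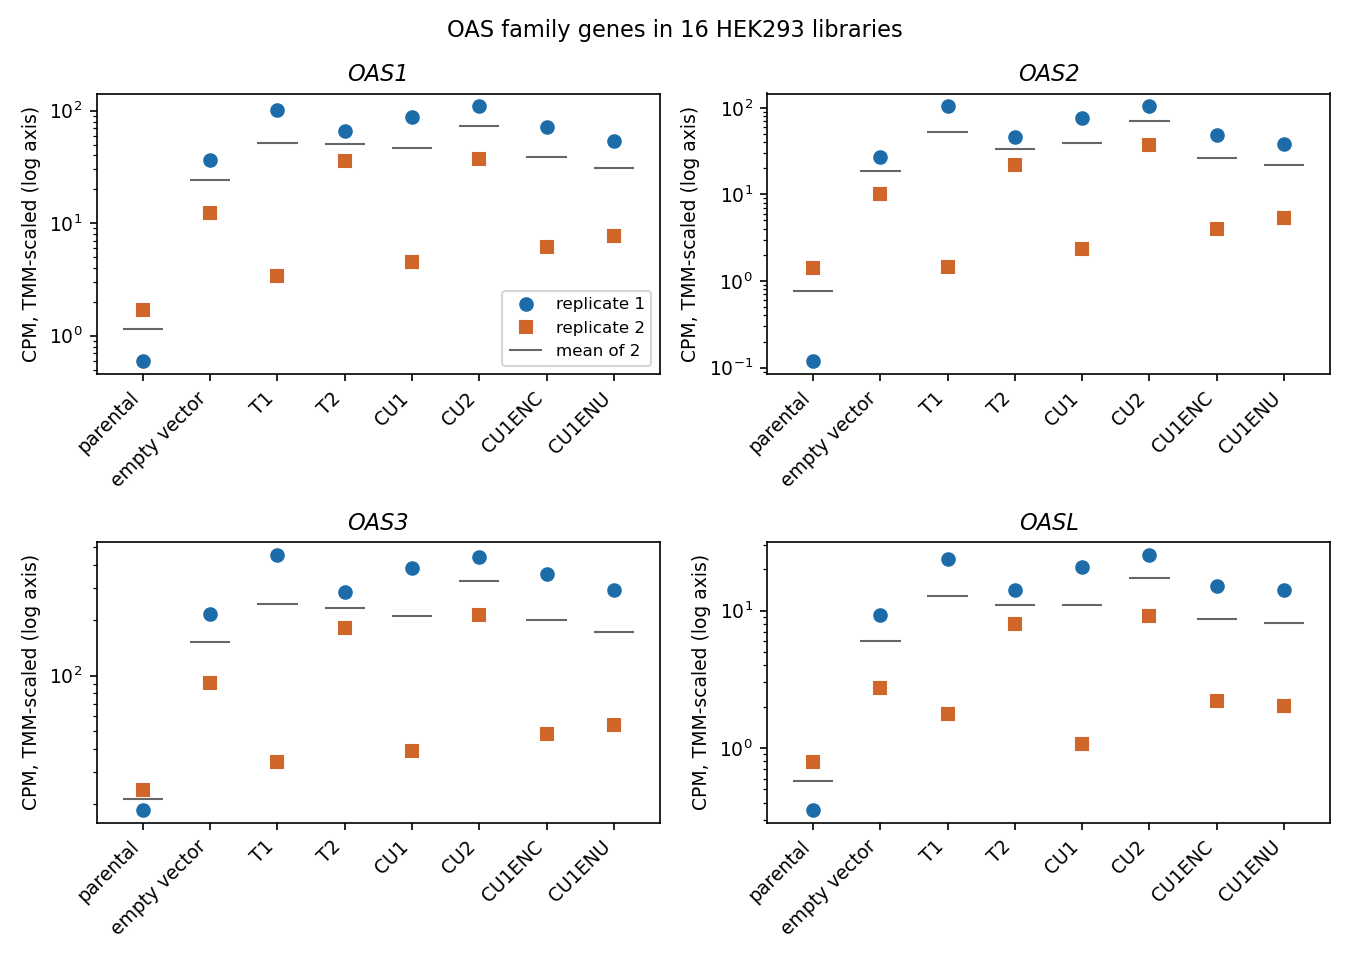
CPM of OAS1, OAS2, OAS3 and OASL in each library by group, on log axes; circles are replicate 1, squares replicate 2 and bars the mean of 2. In every transfected group the circle is above the square, and in the parental group it is below.

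Against the parental library of the same number, the rise in replicate 1 was 61.5- to 185-fold for OAS1 (median of 7 groups 120), 11.5- to 24.2-fold for OAS3 (18.9) and 26.1- to 71.8-fold for OASL (42.5). For OAS2 the replicate 1 ratios rest on 2 parental counts and ran from 227 (95% exact interval 62.4 to 1879) in empty vector to 880 (243 to 7271) in T1. In replicate 2 the ratios were 2.00 to 21.9 for OAS1 (median 4.52), 1.04 to 26.2 for OAS2 (3.82), 1.42 to 8.89 for OAS3 (2.24) and 1.36 to 11.6 for OASL (2.77). The empty plasmid alone gave 61.5-fold and 7.24-fold for OAS1 and 11.5-fold and 3.79-fold for OAS3 in replicates 1 and 2.

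An exact permutation test over samples compared the mean log2 CPM of 14 transfected with 2 parental libraries. OAS1 was higher by 4.70, OAS2 by 5.40, OAS3 by 2.89 and OASL by 3.63, each with a two-sided p of 0.0167, the smallest that 120 assignments can give. The assignments ignored replicate number, although libraries of the same number were correlated. Assignments kept within replicate numbers would be fewer and their smallest p larger, so this p can overstate the evidence. Every one of the 14 libraries showed the direction for every member. ABCE1 and PDE12, which are described below, were also higher in all 14, with the same p in this test. Such a separation was therefore not particular to the family.

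The fit across all genes called no member. In edgeR's quasi-likelihood test, where each member's spread came almost wholly from its own 8 pairs of libraries (prior degrees of freedom of 0.195 for the enzymes and 0.264 for OASL, beside 8 residual), 0 of 4 members were called higher at an adjusted p under 0.05 in any of the 7 groups. The shares of all tested genes called higher, from empty vector to CU1ENU, were 9.41%, 10.9%, 7.26%, 8.36%, 9.57%, 10.0% and 8.77%. At an unadjusted p under 0.05, 4 of 4 members passed in CU2 and 0 in the other 6 groups. For empty vector the fitted log2 fold change was 4.41 ± 2.51 (SE) for OAS1 (adjusted p = 0.283), 4.61 ± 2.87 for OAS2 (0.324), 2.84 ± 1.62 for OAS3 (0.284) and 3.38 ± 2.19 for OASL (0.345). For CU2, the group with the highest mean of every member, it was 5.996 ± 2.48 for OAS1 (0.145), 6.54 ± 2.78 for OAS2 (0.155), 3.94 ± 1.68 for OAS3 (0.157) and 4.91 ± 2.10 for OASL (0.157). By size the members were among the most raised of 19316 genes in empty vector: OAS2 ranked 30, OAS1 35, OASL 74 and OAS3 127, and their median log2 fold change was 3.90 beside 0.01 over all tested genes.

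**Figure D2:**
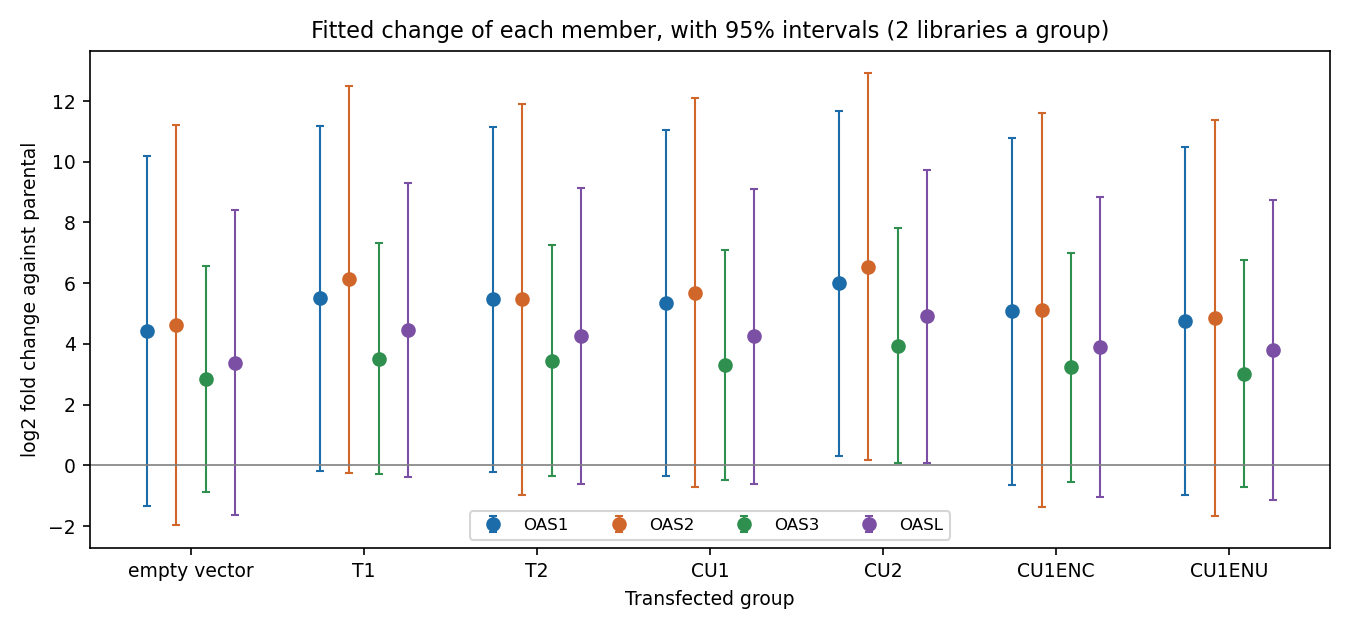
Fitted log2 fold change of each member against parental cells in the 7 transfected groups, with 95% intervals from edgeR. All 28 estimates are above 0, and only in CU2 do the intervals stay above it, where the unadjusted p was under 0.05.

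The mean of the 7 transfected groups was also tested against parental. The edgeR log2 fold change was 5.22 ± 2.28 for OAS1 (adjusted p = 0.125), 5.48 ± 2.58 for OAS2 (0.150), 3.33 ± 1.49 for OAS3 (0.132) and 4.14 ± 1.91 for OASL (0.144), so 0 of 4 were called, beside 15.4% of all genes, and 0 of 4 had an unadjusted p under 0.05. With the replicate number as a block, all 4 were called: adjusted p 0.0197 for OAS1, 0.0359 for OAS2, 0.0394 for OAS3 and 0.0183 for OASL, where 23.1% of all genes were called higher. With the block, 4 members were called for CU2 (18.4% of all genes), 3 for T1 (19.6%; not OAS3), 3 for T2 (17.0%; not OAS2), 2 for CU1 (17.8%; OAS1 and OASL), and 0 for empty vector (18.4%), CU1ENC (18.8%) and CU1ENU (17.9%). The block takes 1 shift between numbers for all groups, while the parental pair moved the other way for each member. DESeq2 without a block called 4 members for T1 (10.9% of all genes), CU2 (11.1%) and the mean of 7 (13.5%), 3 for T2 (6.85%) and CU1 (10.3%), 2 for CU1ENC (10.3%) and CU1ENU (9.63%), and OAS1 alone for empty vector (10.9%).

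The step between replicate numbers was itself tested in the 14 transfected libraries. All 4 members were lower in replicate 2: OASL by a log2 fold change of -2.28 ± 0.43 (SE; edgeR adjusted p = 0.00704), OAS1 by -2.47 ± 0.52 (0.0116), OAS3 by -2.12 ± 0.47 (0.0139) and OAS2 by -2.59 ± 0.61 (0.0176). Of all 19103 genes tested there, 17.6% were lower in replicate 2, and the median was -0.02. The members ranked 13 (OAS2), 21 (OAS1), 29 (OASL) and 34 (OAS3) from the lowest. Pair by pair on log2 CPM, replicate 2 was lower in 7 of 7 groups for each member, by a mean of -2.78 ± 1.52 (SD) for OAS1, -3.07 ± 1.95 for OAS2, -2.18 ± 1.204 for OAS3 and -2.50 ± 1.23 for OASL, each with an exact two-sided sign-permutation p of 0.0156, the smallest that 7 pairs can give. The labels do not say what the number marks.

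The size of the step differed between groups. For each member it was smallest in T2, where replicate 1 was 1.83-fold replicate 2 for OAS1, 2.07-fold for OAS2, 1.57-fold for OAS3 and 1.78-fold for OASL. It was largest in T1 for the enzymes, 29.4-, 71.6- and 13.3-fold, and in CU1 for OASL, 19.4-fold. In the parental pair replicate 1 was the lower: the ratio of replicate 2 to replicate 1 was 2.88 for OAS1, 11.8 for OAS2, 1.28 for OAS3 and 2.23 for OASL.

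**Figure D3:**
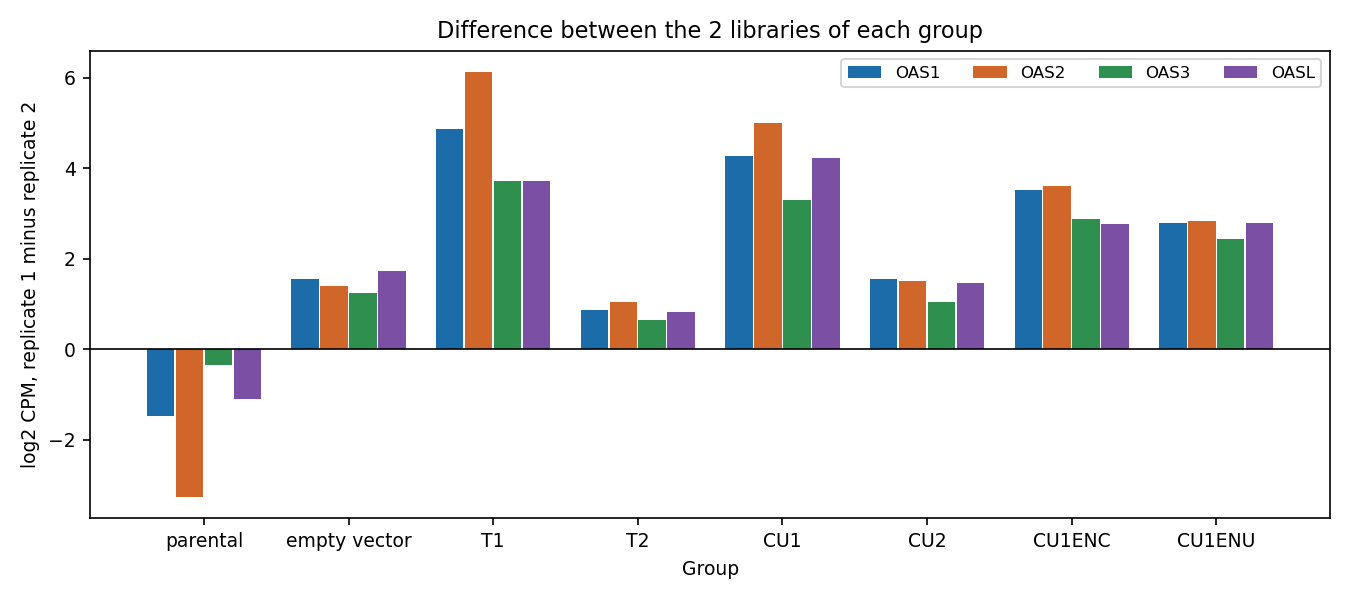
Difference in log2 CPM between replicate 1 and replicate 2 of each group for the 4 members. All 28 bars of the transfected groups are above 0, from 0.65 (OAS3 in T2) to 6.13 (OAS2 in T1), and the 4 parental bars are below 0.

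Whether the LINC01016 transcripts change the family beyond the plasmid was asked against empty vector. By group mean the order was CU2 first, T1 second, empty vector last of the transfected groups and parental below it for all 4 members; T2 and CU1 traded places between OAS2 and the others. CU2 had a mean of 73.4 ± 51.0 CPM (SD, n = 2) for OAS1 and 328 ± 161 for OAS3, and empty vector 24.4 ± 17.01 and 152.9 ± 87.8. Between neighbours in this order of transfected groups the means differed by less than the SD of either group for all 4 members, and empty vector differed from parental cells by more than its SD, with no overlap. The edgeR log2 fold change of the mean of 6 isoforms against empty vector was 0.94 ± 1.44 for OAS1, 1.02 ± 1.56 for OAS2, 0.57 ± 1.18 for OAS3 and 0.88 ± 1.29 for OASL, with adjusted p of 1.00 for each. The 95% intervals, -2.36 to 4.25 for OAS1 and -2.13 to 3.27 for OAS3, leave room for large differences either way.

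None of the 4 members was called in any isoform against empty vector by edgeR with the low-count filter, with or without the block, or by DESeq2, and 0 had an unadjusted edgeR p under 0.05. Without that filter edgeR called up to 4 of 4 (T1 and CU2), beside 32 of all genes in T1 and 73 in CU2. The fit without the filter takes the spread from all genes and none from the gene itself. With the filter, 0.0104% of all genes (2 genes) were called for the mean of 6 and for each isoform but CU2. CU2 had 0.00518% (1 gene). The F-test over the 6 isoforms called 0 of 4 members and 0.00% of all genes, with 0 of 4 at an unadjusted p under 0.05 and 0 of 4 by DESeq2.

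Taken within a replicate number, the isoforms fell on different sides of the empty vector. In replicate 1 all 6 isoform libraries were above it for each member; the median ratio was 2.20 for OAS1, 2.32 for OAS2, 1.71 for OAS3 and 1.94 for OASL. In replicate 2 only T2 and CU2 were above it and the other 4 were below, again for each member, with median ratios of 0.561, 0.457, 0.561 and 0.766. For OAS1 in replicate 2 the ratio ran from 0.276 in T1 to 3.02 in CU2. The direction of the fitted change therefore rested on single libraries. Without T1 replicate 1, T1 against empty vector was -2.84 for OAS1, -3.67 for OAS2, -2.17 for OAS3 and -1.76 for OASL. The change was likewise below 0 for each member in CU1, CU1ENC and CU1ENU without their replicate 1. Such a fit sets replicate 2 alone against both empty vector libraries. Its value therefore also holds the step between replicate numbers, and is not a measure of the transcript alone.

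The order of LINC01016 levels was not that of the family. CU2, with the fewest LINC01016 counts of the isoforms (50050 and 40405), had the highest group mean of each member, and CU1ENU, with the most (192244 and 132205), had the lowest of the isoforms. Empty vector, with 1 and 0 counts, lay below them all by group mean. This order rests on group means of 2 unlike libraries. In replicate 2 the lowest isoform library was T1 for the enzymes and CU1 for OASL, not CU1ENU. In replicate 1 it was CU1ENU for OAS1, OAS2 and OASL, and T2 for OAS3. Between the members' mean log2 CPM and LINC01016, Pearson's r was -0.12 and Spearman's rho 0.01 over the 12 isoform libraries. Within the 6 of replicate 1 r was -0.49 and rho -0.60, and within the 6 of replicate 2 r was -0.78 and rho -0.49. The relation was not tested.

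Compared per length, as CPM per kilobase of exon, OAS3 led in all 16 libraries and OAS1 came second. OAS2 then exceeded OASL in 13 libraries, and OASL exceeded OAS2 in the parental libraries and T1 replicate 2. OAS3 made up 78.8% and 90.6% of the family's summed CPM per kilobase in parental cells and 54.1% to 75.0% in transfected libraries (median 63.1%), with no overlap. OAS1 went from 4.71% and 9.20% to 12.3% to 22.3% (median 18.6%), also without overlap. The shares of OAS2 (0.747% and 5.99% in parental, 4.15% to 16.8% in transfected libraries) and OASL (3.99% and 6.03%, then 4.78% to 9.00%) overlapped. An exact two-sided permutation of the 120 assignments gave p = 0.0167 for the shares of OAS3 and OAS1, 0.05 for OAS2 and 0.0833 for OASL. These assignments ignored replicate number too, so the p-values can overstate the evidence. The 4 shares add up to the whole and so are not independent.

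Across the 14 transfected libraries the members kept nearly 1 order. Pearson's r between log2 CPM values was 0.974 (OAS2 with OASL) to 0.997 (OAS1 with OAS3); it was 0.966 to 0.986 within the 7 libraries of replicate 1 and 0.925 to 0.996 within those of replicate 2. These values describe libraries that fall into replicate numbers and share depth and scaling. For each doubling of OAS3, OAS1 rose by 1.28, OAS2 by 1.47 and OASL by 1.12 on the log2 scale, as fitted by least squares.

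**Figure D4:**
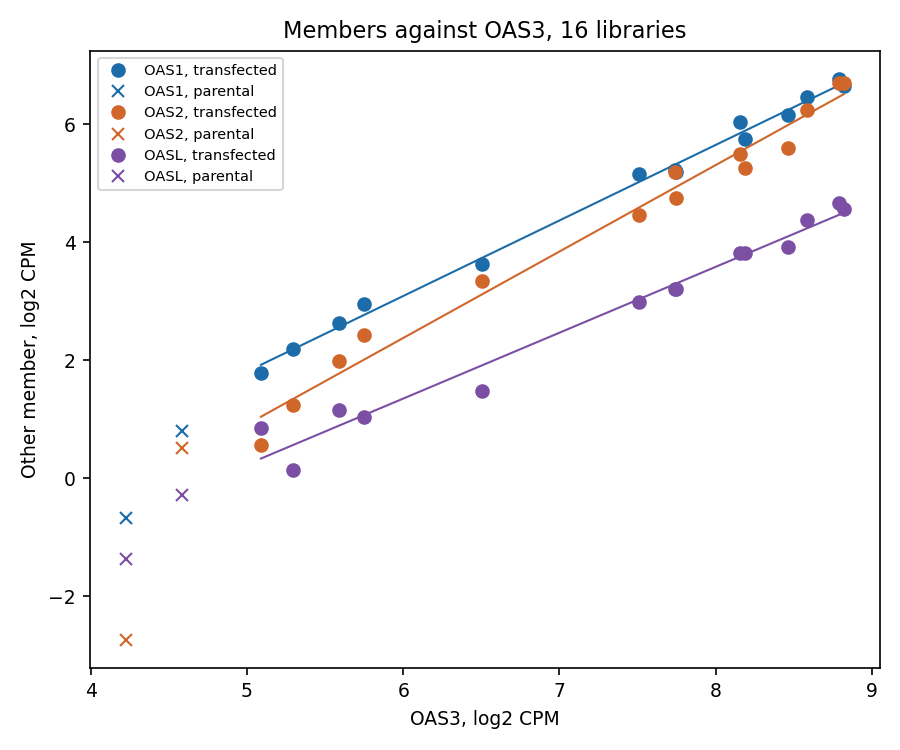
Log2 CPM of OAS1, OAS2 and OASL against log2 CPM of OAS3 in 16 libraries, with least-squares lines through the 14 transfected libraries. Circles are transfected libraries, which lie close to lines with slopes of 1.28, 1.47 and 1.12, and crosses are the 2 parental libraries.

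Among the genes most like the mean of the 4 members over the 14 transfected libraries, out of 14742 ranked by Pearson's r, were RSAD2 (0.999), IFIT3 (0.998), IFIH1 (0.998), IFITM1 (0.997) and SP110 (0.996). Within replicate 1 alone their r was 0.977 to 0.993, and within replicate 2 it was 0.988 to 0.998. All are known interferon-stimulated genes: RSAD2 and IFIT3 are antiviral effectors, IFIH1 a double-stranded RNA sensor, IFITM1 a membrane restriction factor and SP110 a nuclear body protein. In all, 83 genes had r above 0.95. Interferon genes themselves were at few counts: IFNB1 had 0 counts in both parental libraries and 2 to 29 in the transfected ones, and IFNL1 0 and 0 to 18. IFNB1 was highest in CU1 replicate 1 (29 counts) and IFNL1 in the same library (18), where the members ranked 3 of 14. Over the 14 transfected libraries, the members' mean log2 CPM had a Pearson's r of 0.80 with IFNB1 (Spearman's rho 0.78). With IFNL1 r was 0.78 and rho 0.88. These relations were not tested.

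The 33 other interferon-stimulated effectors had the members' direction in each comparison. Against parental, the mean of 7 transfected groups gave 33 of 33 positive fold changes with a median log2 of 2.93, beside 0.00 over all tested genes, and edgeR called 0 of 33 higher (15.4% of all genes), with 8 at an unadjusted p under 0.05. With the replicate block it called 25 (23.1% of all genes), and DESeq2 called 21 (13.5%). The median of the 4 members was 4.68. Between replicates, 33 of 33 were lower in replicate 2, with a median of -2.06. Of 11 tested nucleic acid sensors and adaptors, 2 were higher and 2 lower in the mean of 7 (median 0.43), and of 15 interferon and interferon signalling genes, 3 were higher and 1 lower (median 0.56), shares near the 15.4% of all genes called higher. With the replicate block 6 of the 11 were higher and 2 lower, and 7 of the 15 were higher and 4 lower, beside 23.1% of all genes called higher.

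Genes that act on the 2-5A route moved far less than the family. ABCE1, a ribosome recycling factor also known as an inhibitor in that route, rose. It stood at 109 and 124 CPM in parental cells and 147 to 192 CPM in transfected libraries (median 168), with no overlap. The log2 fold change was 0.50 ± 0.16 in empty vector (edgeR adjusted p = 0.0437) and 0.54 ± 0.12 over the mean of 7 (0.00511). In empty vector the call was lost without any 1 library of parental, empty vector, T2 or CU2 (adjusted p 0.0531 to 0.270), and over the mean of 7 it was lost without parental replicate 1 (0.121). Unlike the members, it was higher in replicate 2, by 0.24 ± 0.03 (9.58e-07), where 17.5% of all genes were.

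PDE12, an enzyme that degrades 2-5A, stood at 47.8 and 51.6 CPM in parental cells and 54.6 to 67.7 CPM in transfected libraries. Its log2 fold change was 0.28 ± 0.11 over the mean of 7 (edgeR adjusted p = 0.0615; 0.000196 with the replicate block) and 0.21 in empty vector (0.325; 0.0268 blocked), and it was 0.21 ± 0.04 higher in replicate 2 (5.99e-05). AKAP7, which can cleave 2-5A as well, stood at 14.7 and 17.2 CPM in parental cells and 13.2 to 16.4 CPM in transfected libraries, and was not called. In the fit without the block, 1 of these 3 genes, ABCE1, was called higher in empty vector and in the mean of 7, beside 9.41% and 15.4% of all genes. With the replicate block PDE12 was called higher too, beside 18.4% and 23.1%.

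**Figure D5:**
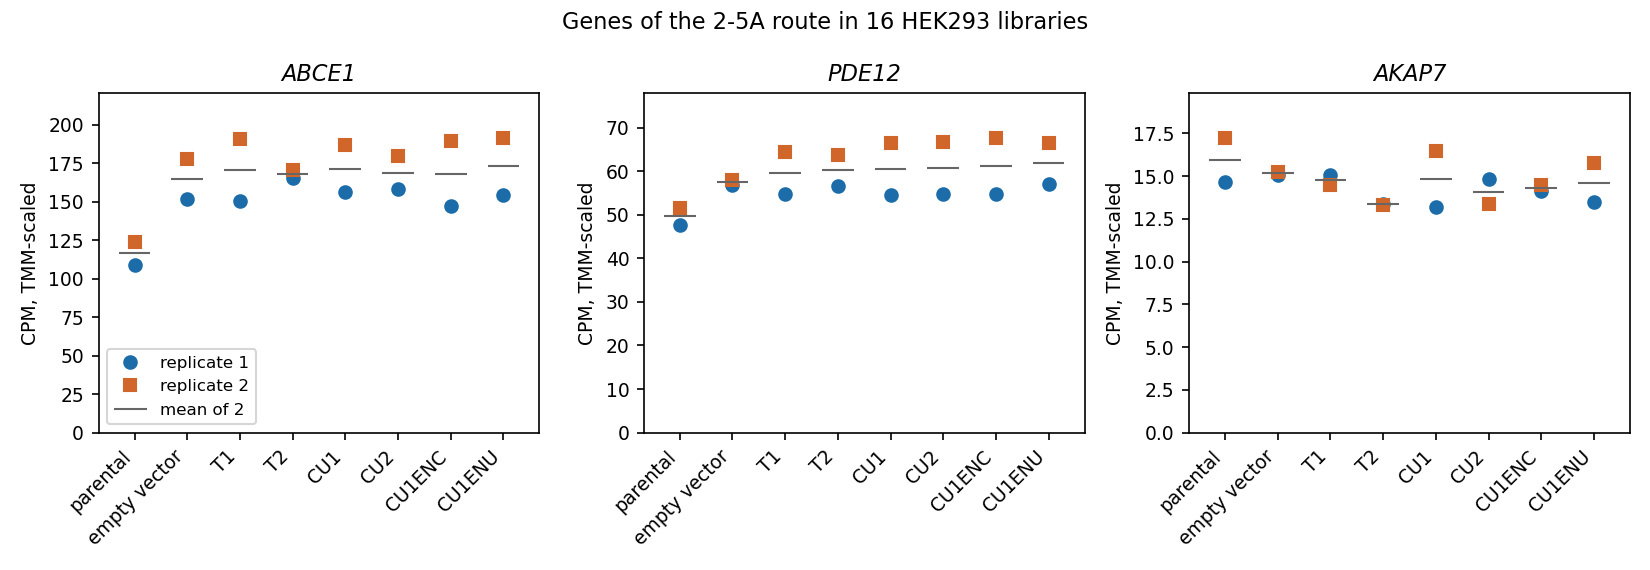
CPM of ABCE1, PDE12 and AKAP7 in each library by group, on linear axes from 0; circles are replicate 1, squares replicate 2 and bars the mean of 2. ABCE1 and PDE12 are higher in every transfected library than in both parental libraries.

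Of the protein-coding genes next to the cluster, PTPN11 and RPL6 before it and DTX1 and RASAL1 after it, none was called in empty vector, and in the mean of 7 only RPL6, a ribosomal protein gene, was, at -0.21 ± 0.08 (edgeR adjusted p = 0.0467). P2RX4, an ion channel gene 170.6 kb from OASL, was lower, at -0.35 ± 0.10 (0.0203), and CAMKK2 was not called.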

How the data were processed

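The authors deposited whole-number counts of read pairs per gene. Per the file headers they came from featureCounts 2.0.1 (paired, strand option 2, exons by gene) with the Ensembl release 101 annotation; the submitters' processing notes name HISAT2, DESeq2 and GRCh38.p13. HISAT2's settings and its handling of multi-mapping reads: not given in the sources used here. RNA integrity numbers were above 9, per the labels' protocols.

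The members and lists were chosen with earlier results of these data known. Counts were tested with edgeR 4.0.16 (R 4.3.3): filterByExpr (minimum count 10, minimum total 15), TMM factors of 0.974 to 1.03, robust quasi-likelihood F-tests on 8 group means of all 16 libraries (8 residual degrees of freedom), Benjamini-Hochberg adjustment over all tested genes. The SE is the absolute log2 fold change over the square root of F. The comparison of replicate numbers used the 14 transfected libraries. CPM are TMM-scaled, with a prior count of 0.5 for log2 values in exact tests, which were two-sided (scipy 1.17.1). Intervals of count ratios are 95% exact and cover counting error only. Scripts were tested on simulated counts.

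The labels number replicates 1 and 2 in each group. After removal of group means, same-numbered libraries correlated in 28 of 28 pairs of groups (r 0.162 to 0.441), so a blocked fit by replicate number (7 residual degrees of freedom) is given where it changes a call; the pairing comes from the data, and no label says what a number marks. Replicates differed beyond sampling noise (chi-square per degree of freedom 6.76 to 18.9). Alternatives were RLE scaling, no filter, DESeq2 1.42.0, the block, non-robust shrinkage, only the 4 libraries compared, each library left out, and a prior count of 5. Genes were named by likeness as the 6 with the highest Pearson's r to the mean of the members over the 14 transfected libraries. Results for some items are not reported here.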

Additional observations from a re-analysis of the deposited data

Results flagged for a closer look

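The difference between the 2 libraries of a group ran one way in the 7 transfected groups and the other way in the parental group for every member. Replicate 1 minus replicate 2 in parental cells was -1.48 on the log2 CPM scale for OAS1, -3.26 for OAS2, -0.36 for OAS3 and -1.09 for OASL, while all 7 transfected groups were positive for each. The difference between these directions was not tested, since there is 1 parental pair, and for OAS1, OAS2 and OASL that pair rests on 2 to 28 counts.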

How the results depend on the processing

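The number of members called higher than in parental cells was 0 in each of the 7 groups and in their mean under TMM or RLE scaling, and 0 again with any 1 library left out. Without the low-count filter it was 4 in each; that fit takes the spread from all genes and none from the gene itself, and called 3381 of all genes, higher or lower, for empty vector and 5869 for the mean of 7. The replicate block, a paired fit, gave 4 for CU2 and the mean of 7, 3 for T1 and T2, and 2 for CU1. DESeq2 gave 4 for T1, CU2 and the mean, 3 for T2 and CU1, 2 for CU1ENC and CU1ENU, and 1 for empty vector. Non-robust shrinkage gave 2 in the mean of 7, beside 5803 of all genes called higher or lower. The 4 libraries of empty vector and parental alone gave 1 (OASL), beside 3012 of all genes called higher or lower. Against empty vector the count of 0 became, without the filter, 4 for T1, CU2, the mean of 6 and the F-test, 3 for T2, 2 for CU1 and 1 for CU1ENC; the cause was not tested for the other settings. Exact tests gave the same p with a prior count of 5.

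Over all genes, the block moved the calls against parental from 3092 to 6626 in empty vector, 3758 to 7261 in T1, 2278 to 6027 in T2, 2593 to 6319 in CU1, 3177 to 6653 in CU2, 3362 to 6924 in CU1ENC, 2888 to 6550 in CU1ENU and 5744 to 8826 in the mean of 7. Without the filter, calls against empty vector went from 2 to 32 in T1, 2 to 35 in T2, 2 to 17 in CU1, 1 to 73 in CU2, 2 to 7 in CU1ENC and 2 to 34 in the mean of 6, and the F-test from 0 to 63 (2 with DESeq2). The block changed no other call of a member. Leaving out 1 library at a time gave 1365 to 3196 calls for empty vector and 2498 to 6030 for the mean of 7, the lowest without empty vector replicate 2 and without parental replicate 1. Ranked by Spearman's rho, 3 of the 6 genes named by likeness were in the first 6. The depth limits OAS1, OAS2 and OASL in parental cells, at 2 to 28 counts.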
